A study of Bos taurus with 64 samples.

Results

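miR-101 (bta-miR-101) is a microRNA (miRNA), a short RNA that guides Argonaute proteins to messenger RNAs. It is described here in cattle skeletal muscle because its values were lower in Holstein-Friesian than in Charolais steers on both diets. It was 1 of 1030 miRNA names in the deposited table and 1 of the 318 abundant enough to be tested, and 1 name in the table was a miR-101 name. Because those breed values led to its choice, the breed difference is given below as a description with no test. Differences between diets and between feed efficiency classes were not used in that choice and are tested. Earlier results of these data were known when it was made.

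The study asked how breed and diet relate to the miRNAs of steers (castrated male cattle) that differ in residual feed intake (RFI), the feed an animal eats beyond what its size and growth predict. Low-RFI animals are the efficient ones. Each of 8 groups held 8 libraries of skeletal muscle. The groups were Holstein-Friesian low-RFI, Holstein-Friesian high-RFI, Charolais low-RFI and Charolais high-RFI steers on a high-concentrate diet, mostly rolled barley with restricted grass silage, and the same 4 kinds of steer on zero-grazed grass, which is cut herbage carried to the animal. All steers ate grass in an earlier phase of 70 days and concentrate in a later phase of 70 days, with 14 days of acclimatisation between. The diets therefore cannot be told apart from time, age and phase order. RFI class was assigned within breed, and a steer's class could differ between phases. The labels name neither the muscle nor the animals' ages. The 64 libraries came from 59 steers, since 5 steers were sampled in both phases. Groups hold separate animals otherwise.

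A miRNA pairs with its targets mainly through a short stretch near its 5′ end, the seed, and lowers the stability and translation of those messages. In human cells miR-101 is known for repressing EZH2, the enzyme of Polycomb repressive complex 2 that methylates histone H3 on lysine 27, and in mouse myoblasts Ezh2 holds muscle genes silent before differentiation. The seed of miR-101 is nearly shared by miR-144, a miRNA of red blood cell precursors. In the RefSeq annotation of a later cattle build, 2 hairpin genes give rise to miR-101. MIR101-1 lies inside the long noncoding RNA gene LOC132344975, between AK4 and JAK1, and MIR101-2 lies inside the protein-coding gene RCL1, between JAK2 and AK3. The single row in the table does not separate the products of these loci.

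Library totals ranged from 4795950 to 12245155 counts, with a median of 8143027. miR-10b, the most abundant miRNA, took 19.3% to 74.5% of a library's counts. Levels are given as CPM, the count scaled to a common library size, after TMM scaling, which estimates that size from their less variable miRNAs, with factors of 0.511 to 2.43. The Holstein-Friesian high-RFI grass library of replicate 1 stood apart, with both the highest factor and the lowest share of miR-10b. Its miR-101 level was 2489 CPM, inside the range of its group. Without it, with scaling recomputed for all libraries, the breed differences below were -0.45 (log2) on concentrate and -0.31 on grass. Levels of the 7 listed skeletal muscle miRNAs differed widely. The most abundant, miR-486, averaged 88599 ± 24786 CPM in Holstein-Friesian and 121052 ± 31937 CPM in Charolais libraries (SD, n = 32 each). Next was miR-133a, at 68045 ± 21720 CPM in Holstein-Friesian and 80588 ± 20875 CPM in Charolais libraries. The others averaged from 14.6 CPM (miR-206) to 8983 CPM (miR-133b), with miR-1 at 247 CPM. The liver miRNA miR-122 was at 0 in 51 of the 64 libraries, and the epithelial miR-200a and miR-200b were at 0 in 52 and 56. Other members of these lists were present: miR-885 (liver) was at 0 in 0 libraries and averaged 23.3 CPM. miR-141 (epithelium) was at 0 in 0 libraries and averaged 2.20 CPM, and the epithelial miR-200c was at 0 in 27.

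miR-101 itself was well sampled. Its deposited counts ran from 8111 to 74165 (median 22123.5), so that counting error alone was 1.11% of the lowest value and 0.367% of the highest. It made up 0.292% ± 0.095 of a library's counts (SD, n = 64) and ranked between 13th and 29th within a library. By mean level it was 23rd, at 2838 CPM, just under let-7f (2839 CPM) and above miR-30d (2694 CPM). The coefficient of variation within a group was 10.8% to 24.4%, far more than counting error.

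On concentrate, the 8 Holstein-Friesian low-RFI libraries had a lowest, median and highest miR-101 level of 2043, 2397 and 2940 CPM, against 2433, 3281 and 4375 CPM in the 8 Charolais low-RFI libraries. All 8 Holstein-Friesian values lay under the Charolais median, although the ranges overlapped. The Holstein-Friesian high-RFI libraries ran from 2054 over a median of 2511 to 3033 CPM, against 2706, 3258 and 5232 CPM in Charolais high-RFI libraries. Again 8 of 8 Holstein-Friesian values lay under the Charolais median.

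On grass, the Holstein-Friesian low-RFI libraries had 1842, 2381 and 3342 CPM (lowest, median and highest), against 2600, 3118 and 3683 CPM in Charolais low-RFI libraries. The Holstein-Friesian high-RFI libraries had 1918, 2352 and 3601 CPM, against 2223, 2927 and 3389 CPM in Charolais high-RFI libraries. In both RFI classes 7 of 8 Holstein-Friesian libraries were under the Charolais median, and the ranges overlapped more than on concentrate. A single library, Holstein-Friesian high-RFI replicate 6, lay above every Charolais high-RFI grass library.

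**Figure D1:**
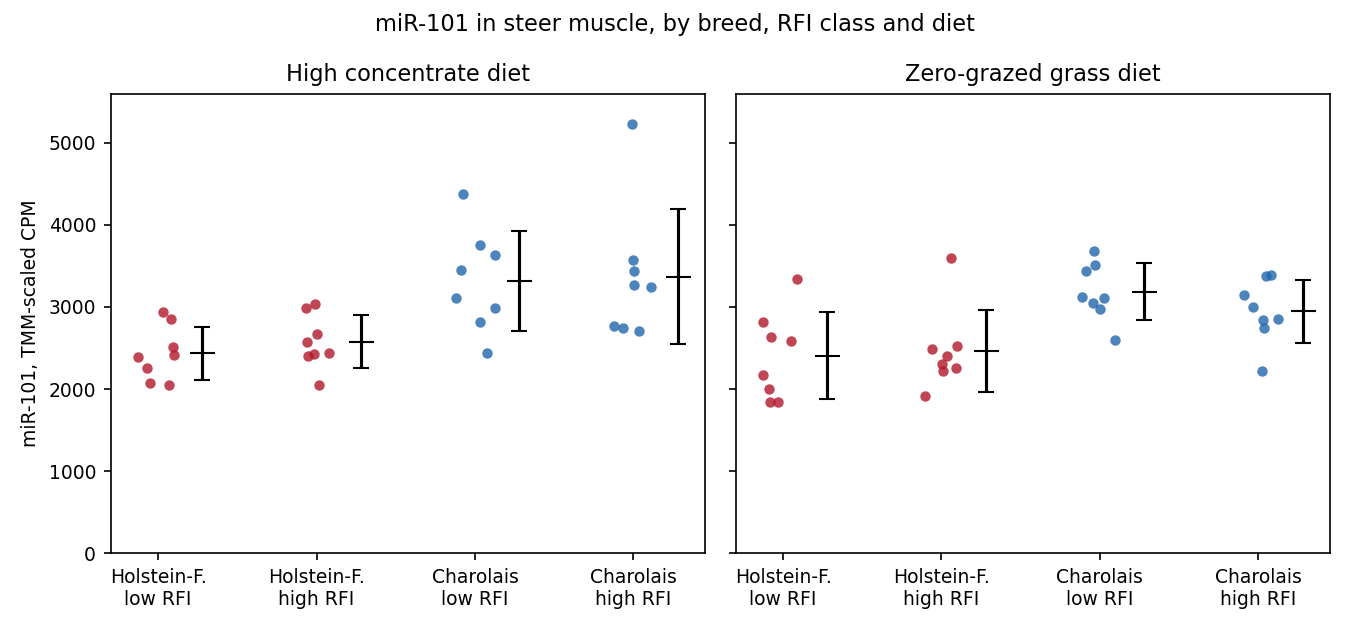
miR-101 level (TMM-scaled CPM, linear axis from 0) in each library, by breed and RFI class, with the concentrate diet on the left and grass on the right. Points are libraries (8 a group) and the bars are the mean ± SD; the 4 Holstein-Friesian means lie between 2405 and 2575 CPM and the 4 Charolais means between 2946 and 3370 CPM.

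Put in order, the group means were lowest in Holstein-Friesian low-RFI steers on grass (2405 ± 531 CPM), then Holstein-Friesian low-RFI on concentrate (2434 ± 327 CPM), Holstein-Friesian high-RFI on grass (2465 ± 496 CPM) and Holstein-Friesian high-RFI on concentrate (2575 ± 323 CPM). The Charolais groups followed, with high-RFI on grass at 2946 ± 380 CPM, low-RFI on grass at 3186 ± 344 CPM, low-RFI on concentrate at 3321 ± 610 CPM and high-RFI on concentrate at 3370 ± 823 CPM (SD, n = 8 each). All 4 Holstein-Friesian means thus stood below all 4 Charolais means. The step from one breed to the other, 371 CPM, was the widest between neighbours and came to 0.977 of the larger SD of the groups beside it. The other 6 steps were 0.053 to 0.631 of that SD, so no neighbours in the order differed beyond their spread.

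Over both diets miR-101 averaged 2470 ± 414 CPM in Holstein-Friesian and 3206 ± 569 CPM in Charolais libraries (SD, n = 32 each). A Holstein-Friesian library was below a Charolais one in 87.9% of the 1024 pairs, 30 of 32 Holstein-Friesian libraries were below the Charolais median, and 8 were below every Charolais library. The fitted log2 difference, Holstein-Friesian minus Charolais, was -0.37 ± 0.06 (SE; 95% interval -0.50 to -0.25), a ratio of 0.771. That interval is a description and no test, since miR-101 was chosen on this contrast. In bulk muscle, fewer cells of a type and less RNA per cell cannot be told apart, nor can breed be told apart from anything else that differed between the animals of the breeds.

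By diet, the level was 2504 ± 322 CPM in Holstein-Friesian and 3345 ± 700 CPM in Charolais steers on concentrate (SD, n = 16 each), and there the log2 difference was -0.42 ± 0.09 (SE). On grass it was 2435 ± 497 CPM in Holstein-Friesian and 3066 ± 372 CPM in Charolais steers (SD, n = 16 each), with a log2 difference of -0.33 ± 0.09. Within RFI classes the difference was -0.45 ± 0.13 in low-RFI and -0.39 ± 0.13 in high-RFI steers on concentrate, and -0.41 ± 0.13 in low-RFI and -0.26 ± 0.13 in high-RFI steers on grass. All 4 were negative, but miR-101 was chosen for lower Holstein-Friesian values on both diets, so their shared sign is no support. Each lay within 1 of its own SE of the average. Across all 318 miRNAs, edgeR's quasi-likelihood test called 1.57% different between breeds on concentrate, 30.2% on grass and 21.7% for the average of the diets (Benjamini-Hochberg adjusted p under 0.05). These shares are the background only, and nothing is read from them for miR-101, which was chosen on this contrast.

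**Figure D2:**
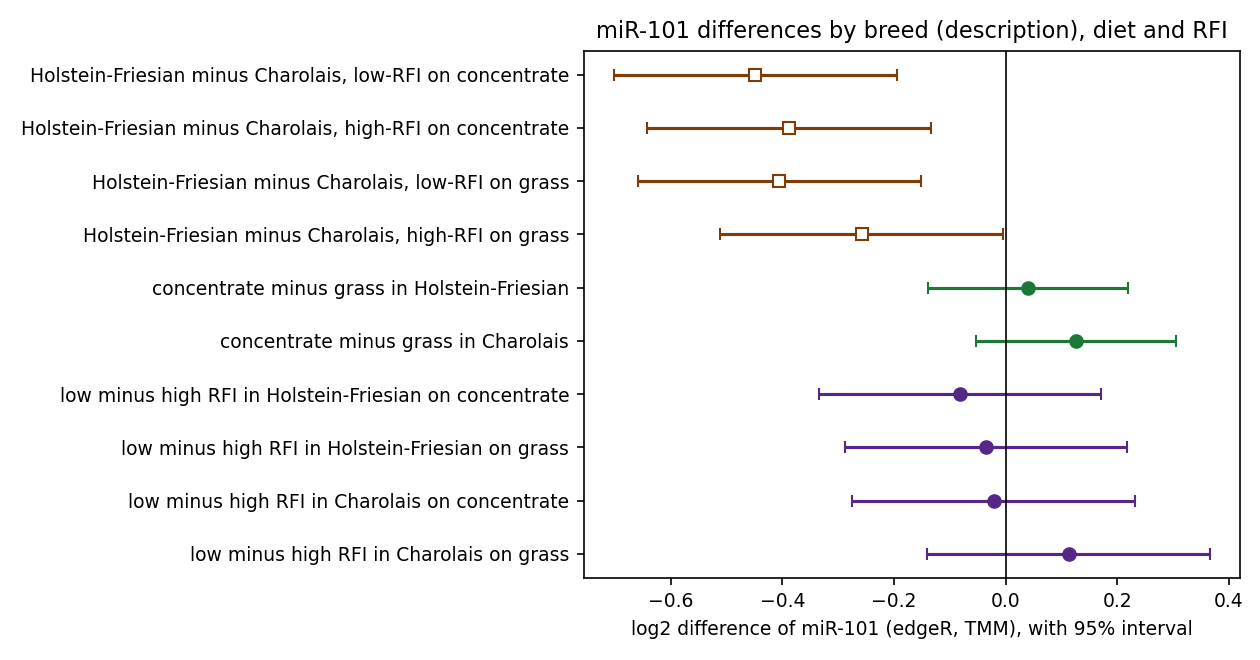
Log2 difference of miR-101 with its 95% interval for breed (open squares, Holstein-Friesian minus Charolais, a description because the miRNA was chosen on it), diet (green, concentrate minus grass) and RFI (purple, low minus high). The 4 breed differences lie between -0.45 and -0.26, and their intervals are no test because of that choice. All diet and RFI intervals include 0.

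With the RFI classes pooled, the direction of the breed difference was kept on each of 8 scales, but its size was not. Divided by the mean of the tested miRNAs on the log scale, miR-101 differed by -0.41 on concentrate and -0.35 on grass (log2, Holstein-Friesian minus Charolais), and 31 of 32 Holstein-Friesian libraries were below the Charolais median. Scaled by total counts alone, the level was 2700 ± 999 CPM in Holstein-Friesian and 3143 ± 858 CPM in Charolais libraries, and 20 of 32 Holstein-Friesian libraries were below the Charolais median. On that scale the log2 difference was -0.31 on concentrate and -0.15 on grass, while the median of all tested miRNAs was itself shifted by 0.08 and 0.20. Leaving miR-10b out of the totals gave -0.27 on concentrate and -0.11 on grass, with the median shifted by 0.14 and 0.25.

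A ratio to a single miRNA needs no scaling. miR-101 came to 5.84% ± 1.57 of the miR-26a level in Holstein-Friesian and 6.58% ± 1.65 in Charolais libraries (SD, n = 32 each), a log2 difference of -0.18. In high-RFI steers on concentrate that ratio was 7.31% in Holstein-Friesian and 7.31% in Charolais libraries. miR-26a, which targets EZH2 in mouse myoblasts, was 45090 ± 14391 CPM in Holstein-Friesian and 50601 ± 11306 CPM in Charolais libraries. Against miR-10b the log2 difference was -0.28. In high-RFI steers on concentrate the breeds were not separated on 3 of these scales. A Holstein-Friesian library was below a Charolais one in 45.3% of 64 pairs by the ratio to miR-10b. That share was 50.0% by the ratio to miR-26a and 50.0% by total counts. By rank within a library, where 1 is the most abundant miRNA, miR-101 stood at 23.0 ± 3.24 in Holstein-Friesian and 18.8 ± 2.40 in Charolais libraries.

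**Figure D3:**
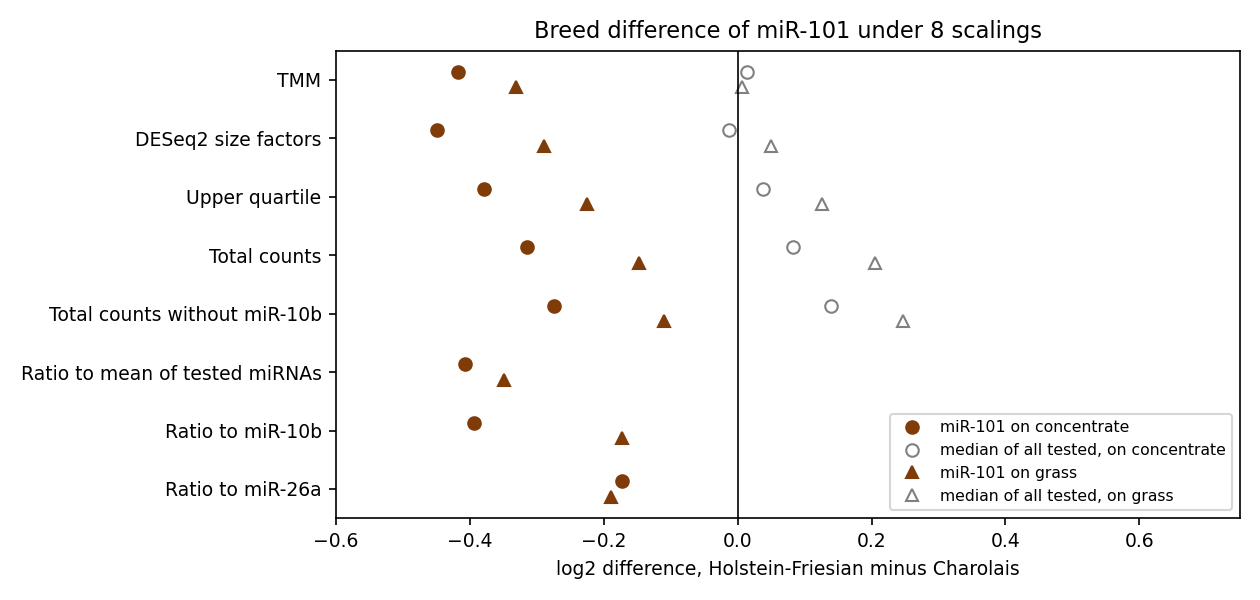
Breed difference of miR-101 (log2, Holstein-Friesian minus Charolais; filled) on concentrate (circles) and grass (triangles) under 8 scalings, with the median of all 318 tested miRNAs (open) for the first 5. The miR-101 values run from -0.45 to -0.11 and lie left of the median wherever it is drawn.

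Several library measures were compared with miR-101 as a description, in deviations from the 8 group means over 64 libraries. On the TMM scale Pearson's r was -0.215 with total counts, -0.0832 with the TMM factor and -0.144 with the miR-10b share. On the total-count scale the same r was 0.844 with the TMM factor and -0.809 with the miR-10b share: on that scale miR-101 was lower in libraries with a higher miR-10b share. The total-count level equals the TMM level times the TMM factor, and miR-10b counts enter the total. Both of these r values were therefore largely built in. The TMM factor was 1.09 ± 0.376 in Holstein-Friesian and 0.990 ± 0.249 in Charolais libraries, and miR-10b took 57.5% ± 10.5 of counts in Holstein-Friesian and 56.1% ± 7.26 in Charolais libraries (SD, n = 32 each). The part of these measures in the breed difference was not tested.

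miRNAs that mark muscle and other cell types were set beside miR-101. The summed level of 7 skeletal muscle miRNAs had a median of 164451 CPM (87915 to 242710) in Holstein-Friesian and 204372 CPM (150442 to 333486) in Charolais libraries, and r with miR-101 within groups was 0.45 (n = 64). That sum was mostly miR-486, whose own r was 0.510, and miR-133a, whose r was 0.0844; the other members ran from -0.0812 (miR-1) to 0.306 (miR-133b). Of the 7, edgeR's quasi-likelihood test called 1 higher in Holstein-Friesian steers, where 11% of all miRNAs were called higher, and 1 lower, where 10.7% were called lower. The higher one was miR-206, a miRNA of regenerating and slow muscle (log2 0.89 ± 0.16), and the lower one miR-486, abundant in muscle and red cells (-0.46 ± 0.10). miR-451 and miR-144, the red blood cell pair, summed to a median of 3218 CPM (779 to 19490) in Holstein-Friesian and 4160 CPM (300 to 49575) in Charolais libraries, with an r of 0.231.

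For 5 leukocyte miRNAs the median sum was 546 CPM in Holstein-Friesian and 518 CPM in Charolais libraries (r = 0.308). The endothelial miR-126 arms summed to 6565 CPM in Holstein-Friesian and 5985 CPM in Charolais libraries (r = -0.161). The 4 miRNAs of smooth muscle and fibroblasts summed to 29968 CPM in Holstein-Friesian and 25730 CPM in Charolais libraries (r = -0.122). Of the liver pair only miR-885 was tested, with a median of 16.2 CPM in Holstein-Friesian and 28.8 CPM in Charolais libraries (r = 0.259). Of 4 epithelial miRNAs only miR-141 was tested, and its r was -0.00845. Between breeds, averaged over diets, edgeR's quasi-likelihood test called 1 of the 5 leukocyte miRNAs higher in Holstein-Friesian steers (miR-155, 0.44 ± 0.12). It also called 1 of the 4 smooth muscle and fibroblast miRNAs higher (miR-143, 0.31 ± 0.11), and miR-885 lower (-0.61 ± 0.15). Of all miRNAs 11% were called higher and 10.7% lower. Of the red cell, endothelial and epithelial miRNAs tested 0 were called. On grass alone 1 leukocyte, 1 endothelial and 3 smooth muscle and fibroblast miRNAs were called higher, where 14.8% of all miRNAs were. There miR-885 was called lower, where 15.4% of all were. On concentrate 0 of these were called, where 1.57% of all miRNAs were. The part of cell makeup in the breed difference of miR-101 was not tested.

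miR-144, the near seed relative, was much rarer and far more variable than miR-101. It had 56.1 ± 52.5 CPM in Holstein-Friesian and 88.1 ± 137 CPM in Charolais libraries (SD, n = 32 each), and its breed difference of -0.46 ± 0.37 (log2 ± SE) did not pass edgeR's quasi-likelihood test (adjusted p = 0.361). Averaged over breeds, miR-144 was higher on concentrate than on grass by 1.09 ± 0.37 (adjusted p = 0.0183 by edgeR). In that contrast 17.9% of all miRNAs were called higher. By breed, miR-144 was higher by 1.68 ± 0.53 in Charolais steers (adjusted p = 0.0166). In Holstein-Friesian steers miR-144 did not pass (0.51 ± 0.52, adjusted p = 0.51). Its partner miR-451 averaged 4894 ± 4544 CPM in Holstein-Friesian and 7390 ± 10361 CPM in Charolais libraries.

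Diet was tested for miR-101 with edgeR's quasi-likelihood test, and the call did not pass in either breed. Holstein-Friesian steers averaged 2504 ± 322 CPM on concentrate and 2435 ± 497 CPM on grass (SD, n = 16 each), and 12 of 16 concentrate libraries were above the grass median. The log2 difference was 0.04 ± 0.09 (SE; adjusted p = 0.778), where 24.2% of all miRNAs were called. Charolais steers averaged 3345 ± 700 CPM on concentrate and 3066 ± 372 CPM on grass (SD, n = 16 each), with 10 of 16 above the grass median. That difference was 0.13 ± 0.09 (adjusted p = 0.324), where 20.8% of all miRNAs were called.

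Over both breeds miR-101 was 2925 ± 685 CPM on concentrate and 2751 ± 538 CPM on grass (SD, n = 32 each), and 16 of 32 concentrate libraries were above the grass median. The log2 difference was 0.08 ± 0.06 (95% interval -0.04 to 0.21; adjusted p = 0.312 by edgeR), in a contrast in which 34% of all miRNAs were called. On the total-count scale this difference was negative (-0.16), with the median of all miRNAs at -0.24. The Holstein-Friesian difference also turned negative there (-0.24), as did the Charolais one (-0.08).

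The 5 steers sampled in both phases gave no common direction. The Holstein-Friesian steer had 2444 CPM on concentrate and 2489 CPM on grass. Among the Charolais steers, 1 had 3270 CPM on concentrate and 3389 CPM on grass, and another had 2990 CPM on concentrate and 3111 CPM on grass. The other two were higher on concentrate, at 3566 CPM on concentrate against 3146 CPM on grass, and at 3752 CPM on concentrate against 2999 CPM on grass. This last steer was low-RFI in the concentrate phase and high-RFI in the grass phase. Taking the animal as a random block, with an estimated correlation of 0.392 between libraries of a steer, left the breed differences at -0.40 on concentrate and -0.34 on grass.

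No RFI difference in miR-101 passed the test. Over both breeds and diets it averaged 2837 ± 617 CPM in low-RFI and 2839 ± 628 CPM in high-RFI steers (SD, n = 32 each), a log2 difference of -0.01 ± 0.06 (95% interval -0.13 to 0.12; adjusted p = 1 by edgeR's quasi-likelihood test). As a ratio of low to high RFI the interval runs from 0.912 to 1.09. In no RFI contrast was any of the 318 miRNAs called (0%). At an unadjusted p under 0.05, 11 passed for the average; DESeq2 and limma-voom also called 0.

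Within groups, low-RFI minus high-RFI was -0.08 ± 0.13 in Holstein-Friesian steers on concentrate (adjusted p = 0.842 by edgeR), with 6 of 8 low-RFI libraries below the high-RFI median. It was -0.02 ± 0.13 in Charolais steers on concentrate (adjusted p = 0.985; 4 of 8 below) and -0.04 ± 0.13 in Holstein-Friesian steers on grass (adjusted p = 0.998; 4 of 8 below). In Charolais steers on grass it was 0.11 ± 0.13 (adjusted p = 0.904), with 7 of 8 low-RFI libraries above the high-RFI median. At an unadjusted p under 0.05 these contrasts held 34, 10, 17 and 15 miRNAs in that order. The RFI difference did not pass a test of differing between breeds (-0.10 ± 0.13, Holstein-Friesian minus Charolais; adjusted p = 0.816) or between diets (-0.09 ± 0.13, concentrate minus grass; adjusted p = 0.973).

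The miRNAs most like miR-101 were sought among 171 tested miRNAs averaging at least 10 CPM, by Pearson's r of the deviations from the 8 group means over 64 libraries. The highest were miR-339b (r = 0.661), miR-106b (0.643), miR-92a (0.621), miR-339a (0.598) and miR-15a (0.578). The median r over the 171 was 0.0178, with 86 positive and 85 negative. For miR-339b, r was 0.671 within Holstein-Friesian and 0.651 within Charolais libraries, and Spearman's rho over all was 0.648. miR-106b and miR-92a belong to the related miR-106b-25 and miR-17-92 clusters, known from proliferating cells, and miR-15a to the miR-15/16 family, which targets cell cycle genes.

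**Figure D4:**
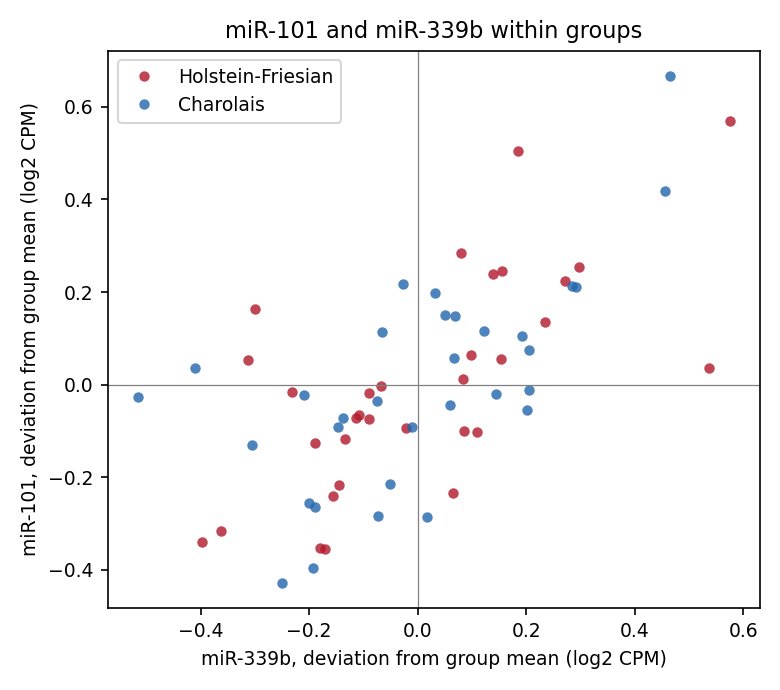
Deviation of each library from its group mean in log2 CPM, with miR-339b on the horizontal and miR-101 on the vertical axis, for 32 Holstein-Friesian and 32 Charolais libraries. The points rise together in both breeds, with an r of 0.671 in Holstein-Friesian and 0.651 in Charolais libraries.

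The lowest r values were -0.471 for miR-30f, -0.462 for miR-450b and -0.457 for miR-154c. On the total-count scale these 3 became positive (0.473, 0.291 and 0.350) and the median r over the 171 was 0.614. Even so, 4 of the 5 highest miRNAs were shared between the scales. Over the 8 group means, which carry the breed difference, the highest were miR-15a (r = 0.921), miR-215 (0.919), miR-652 (0.901), miR-339b (0.859) and miR-885 (0.855). miR-15a and miR-339b were in both lists of 5.

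The levels of these miRNAs by breed are set beside miR-101 as values only. miR-339b had 63.7 ± 11.3 CPM in Holstein-Friesian and 79.0 ± 12.9 CPM in Charolais libraries, a log2 difference of -0.31 ± 0.06. miR-15a had 128 ± 24.9 CPM in Holstein-Friesian and 162 ± 48.6 CPM in Charolais libraries (-0.34 ± 0.08). miR-92a differed by -0.29 ± 0.09, miR-339a by -0.30 ± 0.06 and miR-106b by -0.25 ± 0.14.

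miR-101 is 1 of several miRNAs known to target EZH2 in human or mouse cells. The list of others was chosen with earlier results of these data known, so its counts are no independent support. Of 17 others listed (the let-7 family with miR-98, the miR-26 family, miR-124a, miR-124b, miR-138, miR-214 and miR-217), 12 were tested, and miR-26c was at 0 in all 64 libraries. Between breeds, averaged over diets, edgeR called 1 of the 12 higher in Holstein-Friesian steers and 1 lower, near the shares of all miRNAs called higher (11%) and lower (10.7%). The median difference was -0.01 over the list and -0.02 over all miRNAs.

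let-7i was the higher one, at 681 ± 153 CPM in Holstein-Friesian and 595 ± 108 CPM in Charolais libraries (0.20 ± 0.07, adjusted p = 0.0338 by edgeR). let-7f was the lower one, at 2705 ± 326 CPM in Holstein-Friesian and 2972 ± 408 CPM in Charolais libraries (-0.14 ± 0.05, adjusted p = 0.0435). The 3 most abundant were miR-26a (-0.17 ± 0.09, adjusted p = 0.176), miR-26b (-0.07 ± 0.09, adjusted p = 0.627) and let-7f. The counts moved with the scaling: with miR-10b left out of the totals 8 were called higher and 0 lower, and by total counts 1 higher and 0 lower. On concentrate alone 0 of the 12 were called between breeds, where 1.57% of all miRNAs were. There let-7i was at 0.14 ± 0.10 and let-7f at -0.02 ± 0.07. On grass, where 30.2% of all miRNAs were called, let-7i was at 0.26 ± 0.10 (adjusted p = 0.0395 by edgeR). let-7f was at -0.25 ± 0.07 there (adjusted p = 0.00633), and miR-214 was also called higher (0.64 ± 0.21, adjusted p = 0.0162).

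Between diets 1 of the 12 was called higher on concentrate, where 17.9% of all miRNAs were, and 0 lower, where 16% were. miR-98, a let-7 relative, was that one (0.13 ± 0.05, adjusted p = 0.036 by edgeR), and miR-26a was at -0.22 ± 0.09 (adjusted p = 0.0557). By total counts 0 were higher and 9 lower on concentrate. Within breeds miR-98 was at 0.09 ± 0.07 in Holstein-Friesian steers (adjusted p = 0.409 by edgeR) and 0.18 ± 0.07 in Charolais steers (adjusted p = 0.0692). In Charolais steers 0 of the 12 were called in the full fit, while each of the 64 refits that left out 1 library called 1 higher. miR-214 was called lower on concentrate in Holstein-Friesian steers (-0.62 ± 0.21, adjusted p = 0.0253) and not in Charolais steers (-0.13 ± 0.22, adjusted p = 0.707).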

How the data were processed

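miRNAs were measured by sequencing in skeletal muscle. Per the labels' protocols, muscle RNA came from the RNeasy Plus Universal kit and libraries from a TruSeq stranded kit. For the aligner, the counter, its annotation and the selection of small RNA the sources used here name nothing. Per the submitters' processing notes, the build was ARS-UCD 1.2 and the tools included cutadapt 2.6, FastQC 0.11.8 and edgeR 3.5 in R 3.4. The authors deposited estimated counts, not normalized, for 1030 names in 64 libraries; 0 columns were without a sample. Of the miR-101 values 23 were whole numbers plus 0.5, and all counts were rounded to whole numbers before testing. The name miR-2285b, with empty cells, was left out, and 226 names were at 0 throughout.

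edgeR 4.0.16 (R 4.3.3; TMM, filterByExpr, robust quasi-likelihood fit of the 8 groups, 56 residual degrees of freedom) gave log2 differences, and p-values were adjusted by Benjamini-Hochberg over 318 miRNAs. Names left out by the filter held 0.00592% of counts. The SE is the log2 difference over the square root of F. Group and library levels are TMM-scaled CPM, and likeness used log2 CPM with a prior count of 2. DESeq2 1.42.0, limma 3.58.1, other scalings, no filter, the animal as a block and leaving out each library were alternatives. The fit was tested on simulated data. No 2 libraries agreed within sampling noise (closest pair, chi-square per degree of freedom 362).

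The animal numbers in the labels, not the replicate numbers, pair libraries: 5 steers were sampled in both phases, and their deviations from group means correlated at -0.111 to 0.599. Replicates were numbered in accession order.

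Named miRNAs were miR-101, the 5 most and 3 least like it within groups, the 5 most like it over group means, its neighbours in abundance, miR-10b and miR-26a, the 3 most abundant members of each list, and the marker miRNAs; called list members were named after their values were seen. miR-101 and the lists were chosen with earlier results of these data known. Mature sequences were not used here. Gene names at the miR-101 loci are from the RefSeq annotation of ARS-UCD 2.0, whose coordinates are not given because the build differs.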

Additional observations from a re-analysis of the deposited data

Results flagged for a closer look

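In 2 of the 8 groups the highest miR-101 library lay far from the rest of its group, by the gap to its nearest neighbour relative to the group's range. Charolais high-RFI replicate 3 on concentrate had 5232 CPM, with a gap of 0.66 of the range. Without it, with scaling recomputed, the breed difference on concentrate was -0.36 (log2). Low minus high RFI in Charolais steers on concentrate turned positive (0.10). Holstein-Friesian high-RFI replicate 6 on grass had 3601 CPM, with a gap of 0.643 of the range, and was the library with the lowest total (4795950 counts). Without it, with scaling recomputed, the breed difference on grass was -0.32. Such a refit does not separate the weight of the library from the change of scaling. Chance alone flags about 1 in 20 groups.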

How the results depend on the processing

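The breed difference of miR-101 kept its negative sign under all alternatives run. For the average of the diets it ran from -0.38 (ratio to the mean of tested miRNAs) to -0.18 (ratio to miR-26a), with -0.23 by total counts. On concentrate the ratio to miR-26a gave -0.17. Leaving out each of the 64 libraries in turn, with scaling recomputed, gave -0.47 to -0.36 on concentrate, -0.38 to -0.27 on grass and -0.41 to -0.33 for the average. No diet or RFI test of miR-101 passed under any alternative, but values near 0 changed sign, and the cause was not tested. By total counts the diet difference was -0.24 in Holstein-Friesian steers, -0.076 in Charolais steers and -0.16 on average, and low minus high RFI was 0.073 in Charolais steers on concentrate and -0.019 on grass. On that scale the median of all tested miRNAs lay at -0.24 for the average diet contrast and -0.12 for the average RFI contrast. With miR-10b left out of the totals these RFI values were 0.048 and -0.032, and the Holstein-Friesian diet difference was -0.00181. Upper-quartile scaling gave low minus high RFI of 0.14 in Holstein-Friesian steers on concentrate and 0.00787 on average, an RFI difference between breeds of 0.065 and a Holstein-Friesian diet difference of -0.026; with no filter the last was -0.00461. With the animal as a random replicate block, low minus high RFI was 0.00755 in Charolais steers on concentrate and 0.00359 on average, and with a fixed block 0.00360 and 0.0135; the block changed no call for miR-101. Leaving out single libraries gave diet differences of -0.0017 to 0.13 in Holstein-Friesian steers, 0.097 to 0.21 in Charolais steers and 0.068 to 0.15 on average (lowest adjusted p 0.057, edgeR). For low minus high RFI it gave -0.13 to 0.018 in Holstein-Friesian and -0.14 to 0.099 in Charolais steers on concentrate, -0.22 to -0.014 and 0.062 to 0.15 on grass in the same order, and -0.066 to 0.014 on average; the RFI difference ran from -0.18 to -0.025 between breeds and from -0.11 to 0.037 between diets. Counts of all miRNAs called moved more: between breeds on concentrate 5 became 2 by total counts, 3 by limma-voom with or without the block and without miR-10b in the totals, and 1 without the repeated steers' concentrate libraries; on grass 96 became 50 by total counts; on average 69 became 40 by total counts and 114 without miR-10b. The Charolais diet count of 66 became 42 by total counts and 40 without Charolais high-RFI concentrate replicate 3. In Holstein-Friesian RFI on concentrate, 0 became 5 by upper quartile, 3 without miR-10b in the totals and 2 without the repeated steers' concentrate libraries, and the RFI-by-breed count became 2 by upper quartile. At the lowest miR-101 count, 8111, counting error was small beside the spread within groups, which holds both animal and library differences.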

Other observations

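The 8 miRNAs listed as linked to DNA methyltransferases were the miR-29 family, miR-148a, miR-148b and miR-152, and all were tested. Several of them target these enzymes in human or mouse cells. The list holds both arms of miR-29d, and targeting by each member was not checked here. It was chosen with earlier results of these data known, so its counts are no independent support. Between breeds, averaged over diets, edgeR called 1 higher in Holstein-Friesian steers and 2 lower, where 11% and 10.7% of all miRNAs were called higher and lower. miR-152 was the higher one, at 41.5 ± 21.5 CPM in Holstein-Friesian and 31.2 ± 8.49 CPM in Charolais libraries (SD, n = 32 each; log2 0.37 ± 0.11, adjusted p = 0.0096 by edgeR). miR-29a (-0.19 ± 0.07, adjusted p = 0.0338) and miR-29c (-0.26 ± 0.08, adjusted p = 0.0103) were the lower ones, and miR-148a, the most abundant, was at 0.07 ± 0.07 (adjusted p = 0.507). By total counts 0 were called lower between breeds. The same members were called on grass, where 30.2% of all miRNAs were. On concentrate 0 of the 8 were called, where 1.57% of all miRNAs were. miR-152 was at 0.91 ± 0.16 on grass (adjusted p = 3.03e-05 by edgeR) and -0.17 ± 0.15 on concentrate (adjusted p = 0.598). miR-29a was at -0.33 ± 0.10 on grass and -0.06 ± 0.10 on concentrate. miR-29c was at -0.46 ± 0.11 on grass and -0.05 ± 0.11 on concentrate. Between diets 3 were called higher on concentrate, where 17.9% of all miRNAs were, and 0 lower. These were miR-29b (0.45 ± 0.09, adjusted p = 0.00014), miR-29c (0.28 ± 0.08, adjusted p = 0.00376) and miR-29d-5p (0.44 ± 0.12, adjusted p = 0.00239). By total counts 1 was higher and 2 were lower on concentrate. In Holstein-Friesian steers the same miRNAs were called higher, and miR-152 was called lower (-0.75 ± 0.15, adjusted p = 0.000113 by edgeR). In Charolais steers 0 of the 8 were called in the full fit. Each of the 64 refits that left out 1 library called 1 to 3 higher, so the 0 was not stable. There miR-29b was at 0.30 ± 0.13 (adjusted p = 0.0914), miR-29c at 0.08 ± 0.11, miR-29d-5p at 0.22 ± 0.16 and miR-152 at 0.33 ± 0.15. Within groups the summed level of the 8 miRNAs had an r of -0.0465 with miR-101 over 64 libraries, and that of the EZH2-linked miRNAs an r of 0.457. The EZH2-linked sum was mostly miR-26a, whose own r was 0.468; the other tested members ran from -0.281 (let-7e) to 0.530 (miR-98).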
